A study of Saccharomyces cerevisiae with 15 samples.

Results

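INO1 and 9 further genes of inositol and phospholipid synthesis were followed across 15 cultures of the budding yeast Saccharomyces cerevisiae. The 10 genes were chosen by function: the inositol synthase INO1, the inositol transporter ITR1, the phospholipid enzymes CHO1, PSD1, CHO2, OPI3 and PIS1, and the regulators INO2, INO4 and OPI1. They are 10 of the 5656 genes that a probe set of the array (Affymetrix YG-S98) measured alone. The choice was made with one result already known, the low INO1 signal in deletion cells that carried the Pdr1-Cyc8 fusion, set against deletion cells. The contrasts of INO1 that use those low arrays are therefore given below as descriptions with no test. Where a gene had several probe sets the brightest stood for it, but each of the 10 genes had 1, so brightness chose nothing among them.

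The cultures formed 5 groups with 3 biological replicates in each. The first group combined the Pdr1-Cyc8 fusion with Dpdr1, a deletion of PDR1 (Pdr1-Cyc8 in Dpdr1). The others were Dpdr1 itself, the Pdr1-Cyc8 fusion in cells that kept PDR1, the Pdr1-Sin3 fusion in cells that kept PDR1, and an empty vector. Pdr1 is a zinc cluster activator of drug resistance genes, and Cyc8 and Sin3 are subunits of transcriptional co-repressors. The fusions were designed as dominant-negative forms of Pdr1. The sources used here do not give the vector or promoter of the fusions, the inositol content of the medium or whether Dpdr1 cells held a vector. All cultures grew logarithmically at 30 degrees C in synthetic dextrose medium.

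Ino1 makes inositol phosphate from glucose phosphate, the first step by which yeast provides its own inositol, and Itr1 takes inositol up from the medium. Phosphatidic acid is turned into CDP-diacylglycerol, from which Pis1 makes phosphatidylinositol and Cho1 makes phosphatidylserine. Psd1 then decarboxylates phosphatidylserine to phosphatidylethanolamine, and Cho2 and Opi3 methylate that to phosphatidylcholine. Ino2 and Ino4 form the heterodimer that activates INO1 and many of the other genes when inositol is scarce. Opi1 represses them when inositol is plentiful and is known to bind both Sin3 and Cyc8. PIS1 is known as an enzyme gene of this branch that inositol does not repress.

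Several properties of the arrays bear on every comparison. The labels checked against the 3 manipulated genes: CYC8 was 3.58 higher on the log2 scale in Pdr1-Cyc8 cells and 2.89 higher in Pdr1-Cyc8 in Dpdr1 cells than with the empty vector, SIN3 was 3.24 higher in Pdr1-Sin3 cells, and PDR1 in Dpdr1 cells fell by 4.37. The PDR1 probe set kept a level of 6.94 ± 0.24 in Pdr1-Cyc8 in Dpdr1 cells, against 9.08 ± 0.16 with the empty vector (SD, n = 3). The bacterial spike-in controls split the arrays into 2 sets that the labels do not name. The 6 arrays of Pdr1-Cyc8 in Dpdr1 and Pdr1-Sin3 had a BioC minus BioB difference of -0.64 to -0.20, and the other 9 one of 1.02 to 1.32 (log2). Comparisons across the sets cannot be told apart from the set itself, which leaves Pdr1-Cyc8 in Dpdr1 against Pdr1-Sin3, and Pdr1-Cyc8 or Dpdr1 against the empty vector, as comparisons within a set. The mean level of 20 ribosome assembly genes also varied, from 9.83 to 9.89 in Pdr1-Cyc8 in Dpdr1, 8.0 to 9.63 in Dpdr1, 8.42 to 9.48 in Pdr1-Cyc8, 9.09 to 9.15 in Pdr1-Sin3 and 9.50 to 10.08 with the empty vector. That of 12 general stress genes ran from 9.65 to 9.91 in Pdr1-Cyc8 in Dpdr1, 9.68 to 10.05 in Dpdr1, 9.69 to 10.38 in Pdr1-Cyc8, 10.46 to 10.89 in Pdr1-Sin3 and 8.93 to 9.48 with the empty vector. The part of this variation in the results below was not tested.

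INO1 stood far below the other groups in Pdr1-Cyc8 in Dpdr1 cells. Its deposited intensities there were 541, 474 and 636 on the 3 arrays. They were 9546, 5843 and 5279 in Dpdr1 cells and 5040, 4299 and 5512 in Pdr1-Cyc8 cells. All 3 arrays of the fusion in the deletion lay under every array of those groups. Pdr1-Sin3 cells gave 3222, 4950 and 5129, and empty vector cells 1307, 9109 and 6116. The lowest empty vector array therefore still held more INO1 signal than the highest array of Pdr1-Cyc8 in Dpdr1.

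On the quantile-normalised log2(intensity + 16) scale, which is used for all levels and differences below, INO1 averaged 9.06 ± 0.26 in Pdr1-Cyc8 in Dpdr1 cells. It averaged 12.76 ± 0.46 in Dpdr1, 12.30 ± 0.27 in Pdr1-Cyc8, 12.05 ± 0.36 in Pdr1-Sin3 and 12.05 ± 1.43 with the empty vector (SD, n = 3 each). The ranges of the last 4 groups overlapped from each to its neighbour in this order, and the gap lay below them all. The lowest of those 12 arrays had a level of 10.43 and the highest array of Pdr1-Cyc8 in Dpdr1 one of 9.33. Over all probe sets, 8.03% had all 3 arrays of Pdr1-Cyc8 in Dpdr1 on one side of the other 12. Of the 10 genes, INO1 lay below them and PIS1 above them.

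**Figure D1:**
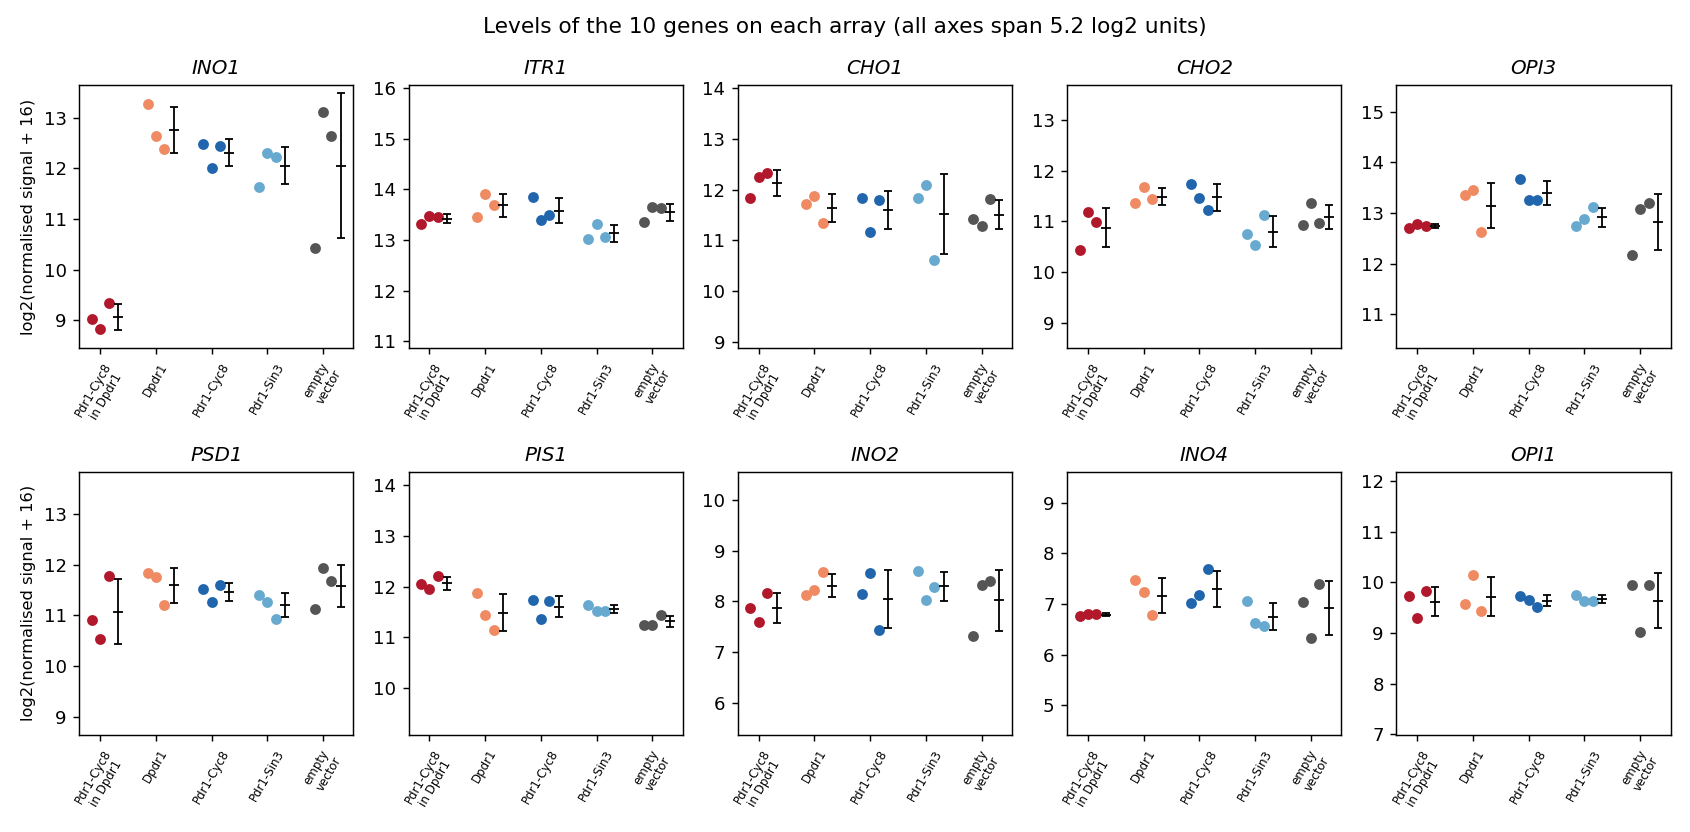
Level of each of the 10 genes on each array, as log2(normalised intensity + 16) on the y axis, by group on the x axis; coloured points are the 3 replicates of a group, and the black dash and bar are their mean and SD. INO1 lies between 8.82 and 9.33 in Pdr1-Cyc8 in Dpdr1 and at 10.43 or above on the other arrays, while no other gene spans more than 1.71 log2 units.

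INO1 was lower in Pdr1-Cyc8 in Dpdr1 cells than in the empty vector by a log2 difference of -2.99, a level 7.96-fold lower. It was also lower than in Pdr1-Cyc8 cells, by -3.24, and than in Pdr1-Sin3 cells, by -2.99. The contrast with Dpdr1 cells, which was known when the genes were chosen, had a difference of -3.70. These 4 differences share the same 3 low arrays, for which INO1 was chosen, so they are not independent of each other. No p-value or interval is given for them. In the comparison with the empty vector 8 probe sets of the 9275 fell further than INO1.

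The fusion in cells that kept PDR1 was compared with the same empty vector. By limma's test, with Benjamini-Hochberg adjustment over 9275 probe sets, INO1 differed there by 0.25 (interval -0.80 to 1.30, adjusted p = 0.908), and in Pdr1-Sin3 cells by -0.003 (interval -1.05 to 1.05, adjusted p = 0.999). Dpdr1 cells without the fusion differed by 0.70 (interval -0.34 to 1.75, adjusted p = 0.565). None of the 3 passed the test, and each interval is wide enough to hold a change of about the pooled within-group SD of INO1, which was 0.71 and larger than that of 97.1% of probe sets.

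The empty vector group had the largest SD of INO1, 1.43, with 1 culture far below the other 2. Empty vector array 1 held INO1 at 10.43, and arrays 2 and 3 at 13.10 and 12.63. The shortfall of array 1 from the mean of the other 2 was -2.44, and 3 probe sets had a larger one: RPS10A, a ribosomal protein gene, with -2.53, BIO3, a biotin synthesis gene, with -2.52, and a probe set with no listed gene with -2.56 (named after their values were seen). The RPS10A probe set is of a type that can also detect near-identical genes. Array 1 was the lowest of the 3 empty vector arrays for 7 of the 10 genes, against 31.6% of all probe sets. OPI3, at 12.18, and INO2, at 7.32, had their lowest level of all 15 arrays on it. Without this array the INO1 difference of Pdr1-Cyc8 in Dpdr1 from the empty vector was -3.79, and without array 2 it was -2.47. Over all 25 alternatives it lay between those 2 values. The difference from Pdr1-Sin3, within 1 array set, was -3.19 to -2.87 over 26 alternatives. Without empty vector array 1 the INO1 differences from the empty vector became -0.56 in Pdr1-Cyc8, -0.81 in Pdr1-Sin3 and -0.11 in Dpdr1 cells, and none passed the test.

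**Figure D2:**
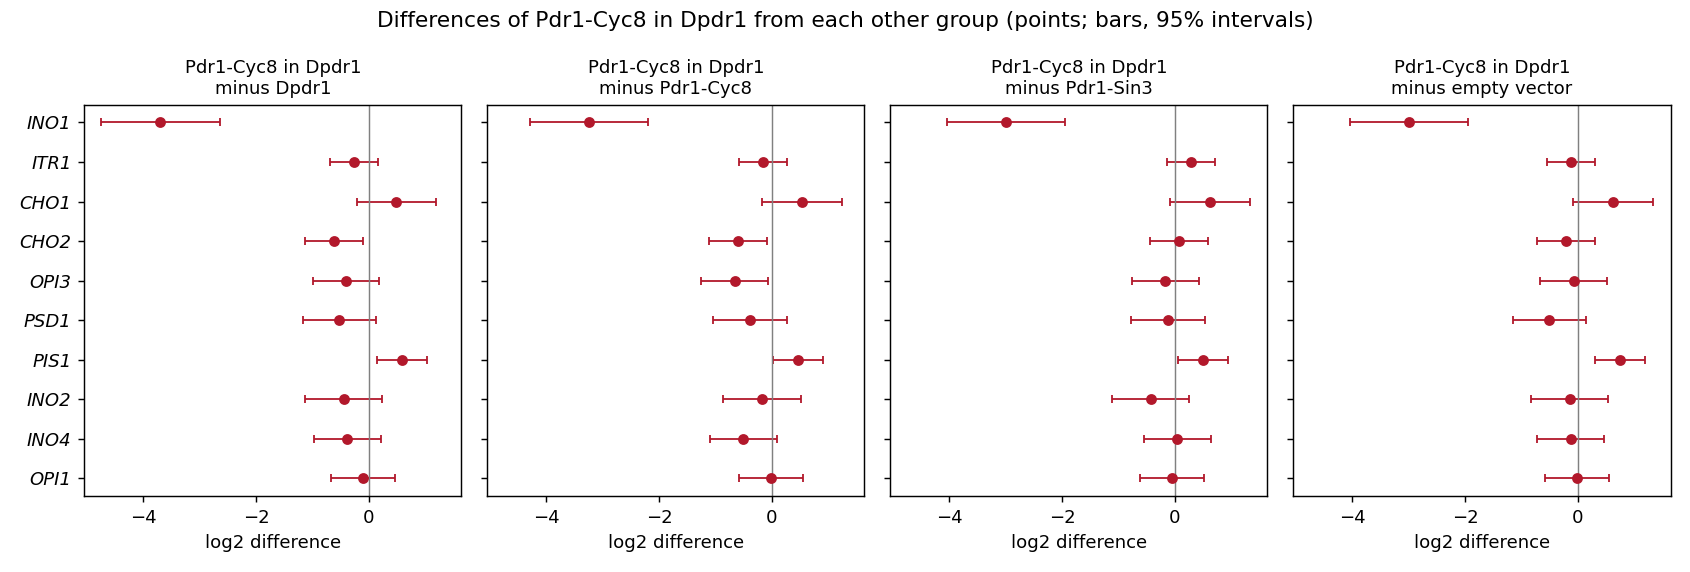
Log2 difference of Pdr1-Cyc8 in Dpdr1 from each of the other 4 groups (x axis, one panel per group) for the 10 genes (y axis); points are limma estimates and bars their 95% intervals. INO1 lies between -3.70 and -2.99 in all panels, and no other gene lies further from 0 than 0.75. The bars of INO1 are not read as a test, since INO1 was chosen for its low arrays.

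PIS1, the phosphatidylinositol synthase gene, had its highest levels in the cells with the lowest INO1. Its intensities were 3949, 3632 and 4601 in Pdr1-Cyc8 in Dpdr1 cells. They were 3611, 2906 and 2340 in Dpdr1, 3271, 2713 and 3367 in Pdr1-Cyc8, 3229, 2789 and 2959 in Pdr1-Sin3 and 2562, 2479 and 2853 with the empty vector. Every array of the fusion in the deletion lay above the other 12, with 11.95 on the lowest of them and 11.87 on the highest Dpdr1 array. PIS1 was higher than in the empty vector by 0.75 (SE 0.208, interval 0.31 to 1.19, adjusted p = 0.0368), a level 1.68-fold higher. The value stayed above 0 under all 25 alternatives (0.45 to 0.81) and passed the test in 16 of them, with an adjusted p of 0.0139 to 0.198. It did not pass with the values as deposited (0.62, adjusted p = 0.0686), with median centring (0.45, adjusted p = 0.198) or with a pseudocount of 1 (0.75, adjusted p = 0.0518). It also did not pass without any 1 of the 3 empty vector arrays (0.72, 0.72 and 0.81) or any 1 of the 3 arrays of Pdr1-Cyc8 in Dpdr1 (0.76, 0.81 and 0.68). The differences of PIS1 from Dpdr1, Pdr1-Cyc8 and Pdr1-Sin3 cells were 0.58, 0.46 and 0.50, with adjusted p of 0.0638, 0.169 and 0.219. Only the difference from Pdr1-Sin3 cells lies within 1 spike-in set. The called difference from the empty vector crosses the sets and cannot be told apart from them.

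ITR1, whose product is the other source of inositol, varied by 0.89 log2 units over the 15 arrays, against 4.44 for INO1. Its level averaged 13.42 ± 0.09 in Pdr1-Cyc8 in Dpdr1, 13.68 ± 0.22 in Dpdr1, 13.58 ± 0.24 in Pdr1-Cyc8, 13.13 ± 0.17 in Pdr1-Sin3 and 13.54 ± 0.17 with the empty vector (SD, n = 3 each). The intensities ran from 8790 to 13566 over the 15 arrays. The difference of Pdr1-Cyc8 in Dpdr1 from the empty vector was -0.13 (interval -0.55 to 0.30, adjusted p = 0.768), an interval that does not reach the size seen for INO1. The lowest levels were in Pdr1-Sin3 cells, whose 3 arrays lay below those of the empty vector (-0.41, adjusted p = 0.280) without passing the test.

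CHO1, the phosphatidylserine synthase gene, was higher on average in Pdr1-Cyc8 in Dpdr1 cells without a call. Its intensities were 3362, 4609 and 4987 in Pdr1-Cyc8 in Dpdr1 cells and 2913, 2519 and 3805 with the empty vector. The third empty vector array exceeded the lowest of the fusion in the deletion as deposited, but not after normalisation. The difference was 0.63 (interval -0.08 to 1.34, adjusted p = 0.275). In Pdr1-Sin3 cells the 3 arrays gave 3661, 4251 and 1513, so that 1 of them was the lowest of all 15. PSD1, which encodes the mitochondrial phosphatidylserine decarboxylase, was at 1832, 1446 and 3335 in Pdr1-Cyc8 in Dpdr1 and at 2276, 3978 and 3453 with the empty vector. Its 3 arrays in the fusion in the deletion held both the lowest values of all 15 and a value near the empty vector's, and the difference was -0.51 (interval -1.16 to 0.14, adjusted p = 0.343).

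The methyltransferase genes CHO2 and OPI3 were highest in Pdr1-Cyc8 or Dpdr1 cells. CHO2 intensities were 1359, 2174 and 1916 in Pdr1-Cyc8 in Dpdr1, 2490, 3331 and 2879 in Dpdr1, and 3262, 2919 and 2367 in Pdr1-Cyc8. They were 1672, 1468 and 2202 in Pdr1-Sin3 and 1955, 2694 and 2099 with the empty vector. The arrays of Pdr1-Cyc8 in Dpdr1 lay below those of Dpdr1 and of Pdr1-Cyc8, but among those of Pdr1-Sin3. The CHO2 difference from Dpdr1 was -0.62 (interval -1.13 to -0.10, adjusted p = 0.0889), that from Pdr1-Cyc8 -0.60 (adjusted p = 0.124) and that from the empty vector -0.22 (adjusted p = 0.654). With median centring the difference from Dpdr1 was -0.77 and passed (adjusted p = 0.0458), the 1 setting of 25 in which it did, over a range of 0.0458 to 0.382.

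OPI3 gave 6641, 7036 and 7359 in Pdr1-Cyc8 in Dpdr1, 10089, 9589 and 6269 in Dpdr1 and 10488, 9310 and 9788 in Pdr1-Cyc8. It gave 7300, 7879 and 9447 in Pdr1-Sin3 and 4889, 9071 and 9186 with the empty vector. The Pdr1-Cyc8 arrays lay above those of Pdr1-Cyc8 in Dpdr1 and of the empty vector. The difference of Pdr1-Cyc8 in Dpdr1 from Pdr1-Cyc8 was -0.66 (interval -1.25 to -0.07, adjusted p = 0.140), and that from the empty vector was -0.08 (interval -0.67 to 0.52, adjusted p = 0.912). Neither passed the test.

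The 3 regulators were called in no comparison by the limma test. OPI1, the repressor gene, had group means from 9.62 to 9.72, the narrowest spread of means of the 10 genes, and differed by -0.02 between Pdr1-Cyc8 in Dpdr1 and the empty vector (interval -0.59 to 0.55, adjusted p = 0.978). INO2 intensities were 240, 196 and 280 in Pdr1-Cyc8 in Dpdr1, 268, 290 and 364 in Dpdr1, 289, 357 and 154 in Pdr1-Cyc8, 347, 239 and 269 in Pdr1-Sin3 and 131, 293 and 323 with the empty vector. Its groups overlapped throughout, and the difference from the empty vector was -0.15 (interval -0.83 to 0.54, adjusted p = 0.837). INO4 was the dimmest of the 10, at 63.4 to 184, a range that includes the median intensity of the arrays, 116 to 141. Its difference from the empty vector was -0.13 (interval -0.72 to 0.46, adjusted p = 0.834). The intervals of all 3 regulators reach at least 0.46 log2 units in both directions, so changes of that size were not detectable here.

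Calls among the 10 genes were few, and most were INO1. In Pdr1-Cyc8 in Dpdr1 against the empty vector 2 of 10 were called, INO1 down and PIS1 up, where 8.47% of all probe sets were called. Against Dpdr1 1 of 10 was called, which is INO1 and was known, where 19% were. Against Pdr1-Cyc8 1 of 10 was called where 11.1% were, and against Pdr1-Sin3 1 of 10 where 2.53% were, INO1 in both. As INO1 was chosen for those arrays, nothing is read from its calls. In Pdr1-Cyc8, Pdr1-Sin3 and Dpdr1 against the empty vector limma called 0 of 10, where it called 0.712%, 3.71% and 0.0323% of all probe sets, and 0 had an unadjusted p under 0.05. In Pdr1-Cyc8 against Pdr1-Sin3 it called 0 of 10 where 2.72% were called, and 2 had an unadjusted p under 0.05, CHO2 with 0.67 and ITR1 with 0.45. The share of all probe sets with an unadjusted p under 0.05 was not computed, so nothing is read from these counts. The median difference of the 10 genes in Pdr1-Cyc8 in Dpdr1 was -0.13 from the empty vector and -0.39 from Dpdr1, against 0.01 over all probe sets in both.

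**Figure D3:**
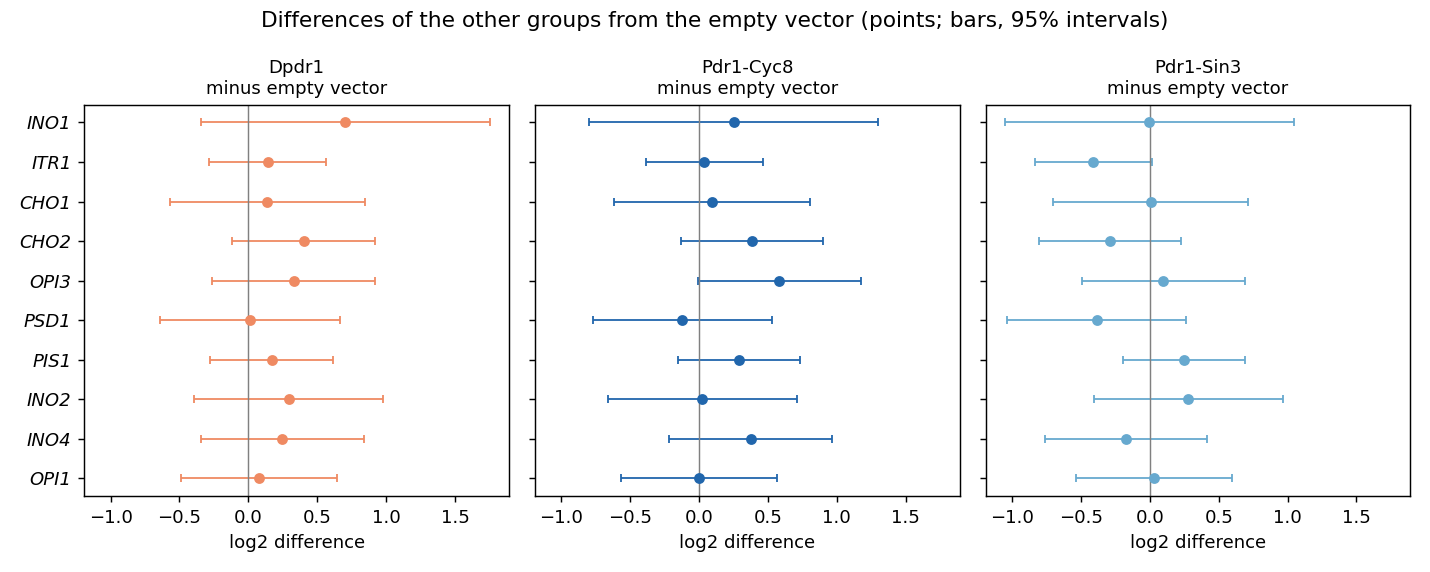
Log2 difference of Dpdr1, Pdr1-Cyc8 and Pdr1-Sin3 from the empty vector (x axis, one panel per group) for the 10 genes (y axis); points are limma estimates and bars their 95% intervals. Every interval includes 0, and that of INO1 is the widest of the 10 in each panel.

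The difference between the effect of the Pdr1-Cyc8 fusion in Dpdr1 cells and its effect in cells that kept PDR1 was then computed. For INO1 this was -3.95. It contains the contrast known when the genes were chosen, and it compares arrays of both sets. Of the 10 genes 1, INO1, was called, where 11.5% of all probe sets were. CHO2 had -1.0 (adjusted p = 0.0709) and OPI3 -0.98 (adjusted p = 0.114), which did not pass. Leaving out empty vector array 1 changed the value of INO1 to -3.12. When Dpdr1 arrays 1 and 2 and Pdr1-Cyc8 array 1, the lowest in ribosome assembly genes, were left out, which leaves 1 Dpdr1 array, it was -3.51. Over 25 alternatives it was -4.46 to -3.12. As INO1 was chosen for the low arrays, its call and this range are descriptions with no test. In this comparison 13 of the 20 ribosome assembly genes rose, with a median of 2.02, and their part in the value was not tested.

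Of 48 genes of the neighbouring lipid pathways, in 6 lists, few were called. The lists cover inositol handling, the CDP-diacylglycerol branch, the Kennedy pathway that uses choline and ethanolamine, acyltransferases, fatty acid synthesis and inositol signalling. In Pdr1-Cyc8 in Dpdr1 against the empty vector 2 rose and 0 fell, 4.17% of the list against 8.47% of all probe sets, and the median was -0.04 against 0.01. DPP1, a vacuolar phosphatase of diacylglycerol pyrophosphate, averaged 10.27 ± 0.17 against 9.22 ± 0.28 (SD, n = 3 each), a rise of 1.05 (adjusted p = 0.0138). ELO1, a fatty acid elongase gene, averaged 11.71 ± 0.38 against 10.69 ± 0.35, a rise of 1.02 (adjusted p = 0.0352). In Dpdr1, Pdr1-Cyc8 and Pdr1-Sin3 cells DPP1 averaged 9.67 ± 0.45, 9.83 ± 0.18 and 9.73 ± 0.17, all above the empty vector. ELO1 averaged 11.32 ± 0.27, 11.83 ± 0.47 and 10.44 ± 0.25 in these groups, so that it was highest in Pdr1-Cyc8 cells. The call of DPP1 was lost without empty vector array 2 (0.91, adjusted p = 0.0737) and without array 3 of Pdr1-Cyc8 in Dpdr1 (0.99, adjusted p = 0.0527). The call of ELO1 held in 19 of 25 alternatives. It was lost with median centring (0.74, adjusted p = 0.0949), with a pseudocount of 1 (1.03, adjusted p = 0.0579), without empty vector array 2 or 3 (0.94 and 0.90) and without array 1 or 2 of Pdr1-Cyc8 in Dpdr1 (1.0 and 0.85). Its adjusted p over the alternatives was 0.0174 to 0.129, and that of DPP1 0.00563 to 0.0737.

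ELO1 was also higher than in Pdr1-Sin3 cells, by 1.27 in Pdr1-Cyc8 in Dpdr1 (adjusted p = 0.0267) and by 1.39 in Pdr1-Cyc8 (adjusted p = 0.0170). It was the only gene of the 48 called in either comparison, where 2.53% and 2.72% of all probe sets were called. Both ELO1 calls held in 20 alternatives. The second was lost without array 1 of Pdr1-Cyc8 (1.19) or array 1 or 2 of Pdr1-Sin3 (1.42 and 1.25). The first was lost without array 1 or 2 of Pdr1-Cyc8 in Dpdr1 (1.24 and 1.10) or any 1 array of Pdr1-Sin3 (1.30, 1.13 and 1.36). HNM1, the choline and ethanolamine transporter gene, averaged 9.25 ± 0.35 in Pdr1-Sin3 cells and 10.55 ± 0.23 with the empty vector, so that it fell by 1.31 (adjusted p = 0.0218). It was the 1 gene of the 48 called there, where 3.71% of all probe sets were called. The HNM1 call was lost without empty vector array 1 or 2 (-1.17 and -1.36) and without Pdr1-Sin3 array 1 or 3 (-1.11 and -1.36). In Pdr1-Cyc8 and in Dpdr1 against the empty vector, and in Pdr1-Cyc8 in Dpdr1 against Pdr1-Cyc8, limma called 0 of the 48. Over all probe sets 0.712%, 0.0323% and 11.1% were called. Of the 48 genes 3, 7 and 4 had an unadjusted p under 0.05, for which the share over all probe sets was not computed.

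Against Dpdr1, Pdr1-Cyc8 in Dpdr1 cells had higher levels of ECT1 and SAC1, and limma called 0 of the 48 genes lower (median -0.08 against 0.01 over all probe sets). An unadjusted p under 0.05 was found for 8 of the 48, and the share over all probe sets was not computed. The 2 calls were 4.17% of the list, where 19% of all probe sets were called. ECT1, which encodes the enzyme that makes CDP-ethanolamine, averaged 9.25 ± 0.24 against 8.37 ± 0.36, a rise of 0.88 (adjusted p = 0.0179). SAC1, a phosphatidylinositol phosphate phosphatase gene, averaged 10.68 ± 0.33 against 9.79 ± 0.53, a rise of 0.89 (adjusted p = 0.0466). With the empty vector and in Pdr1-Cyc8 and Pdr1-Sin3 cells ECT1 averaged 9.13 ± 0.30, 8.66 ± 0.23 and 8.79 ± 0.11. SAC1 averaged 10.49 ± 0.13, 10.02 ± 0.55 and 10.87 ± 0.09 in these groups. Dpdr1 was thus the lowest group for both genes, and the empty vector lay near Pdr1-Cyc8 in Dpdr1. The ECT1 call was lost without Dpdr1 array 1 (0.68, adjusted p = 0.0769), without array 1 of Pdr1-Cyc8 in Dpdr1 (0.76, adjusted p = 0.0724) and in a fit of only those 2 groups (0.86, adjusted p = 0.0769). SAC1 passed in 8 of 25 alternatives, and its value without Dpdr1 array 2 was 0.59 (adjusted p = 0.211). In this comparison 11 of the 20 ribosome assembly genes rose, with a median of 1.19 over the list, and with the 3 arrays that were lowest in them left out ECT1 was at 0.56 and SAC1 at 0.52, both without a call.

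A further 11 genes known to act on INO1 transcription were also read. Apart from CYC8 and SIN3, which report the fusions, 1 was called: SNF2, the ATPase gene of a chromatin remodelling complex, averaged 9.30 ± 0.43 in Pdr1-Cyc8 in Dpdr1 and 10.21 ± 0.13 in Dpdr1 (-0.91, adjusted p = 0.0253). In that comparison 19% of all probe sets were called. With the empty vector and in Pdr1-Cyc8 and Pdr1-Sin3 cells SNF2 averaged 9.69 ± 0.38, 9.53 ± 0.38 and 9.50 ± 0.05, so that Dpdr1 was the highest group. The SNF2 call against Dpdr1 held in 19 of 25 alternatives. It was lost without Dpdr1 array 1 or 2 (-0.84 and -0.97) and without array 1 or 2 of Pdr1-Cyc8 in Dpdr1 (-0.76 and -0.82), in a fit of only the groups compared (-0.89) and without the 3 arrays named above (-0.91, adjusted p = 0.201).

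INO1 is also known to need the unfolded protein response, in which the sensor Ire1 of the endoplasmic reticulum lets the activator Hac1 be made. Of 10 genes of that response, 2 fell in Pdr1-Cyc8 in Dpdr1 against the empty vector and 3 fell against Dpdr1, and 0 rose in either. Over all probe sets 8.47% and 19% were called in these comparisons. The median of the list was -0.43 in both comparisons, against 0.01 over all probe sets. LHS1, a chaperone gene of the endoplasmic reticulum, averaged 7.87 ± 0.19 in Pdr1-Cyc8 in Dpdr1, 9.26 ± 0.33 in Dpdr1 and 8.99 ± 0.65 with the empty vector (SD, n = 3 each). It fell by 1.39 against Dpdr1 (adjusted p = 0.00382) and by 1.12 against the empty vector (adjusted p = 0.0206). JEM1, a co-chaperone gene, fell by 0.88 against Dpdr1 (adjusted p = 0.0241) and fell by 0.94 against the empty vector (adjusted p = 0.0310). It was dim, with intensities of 53.5 to 128 in Pdr1-Cyc8 in Dpdr1 cells, near or below the median intensity of the arrays, 116 to 141. KAR2, which encodes the main Hsp70 chaperone of the compartment, averaged 12.37 ± 0.24 in Pdr1-Cyc8 in Dpdr1 and 13.44 ± 0.24 in Dpdr1. It fell by 1.07 (adjusted p = 0.0443). Pdr1-Sin3 cells, of the same spike-in set, had KAR2 at 12.32 ± 0.21, as low as Pdr1-Cyc8 in Dpdr1. JEM1 averaged 6.75 ± 0.03 there and 6.51 ± 0.47 in Pdr1-Cyc8 in Dpdr1, against 7.45 ± 0.29 with the empty vector. LHS1 averaged 8.46 ± 0.07 in Pdr1-Sin3 cells, above its level in Pdr1-Cyc8 in Dpdr1. Limma called 0 of the 10 against Pdr1-Cyc8 or Pdr1-Sin3, where 11.1% and 2.53% of all probe sets were called. In these comparisons 2 and 3 of the 10 had an unadjusted p under 0.05, for which the share over all probe sets was not computed. The medians were -0.45 and -0.22.

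Most of these calls were lost when some single arrays were left out. Against the empty vector LHS1 and JEM1 passed in 19 of 25 alternatives each, and both were lost without empty vector array 2 (-0.92 and -0.80) or 3 (-0.94 and -0.92) and without array 2 (-1.06 and -0.74) or 3 (-1.07 and -0.87) of Pdr1-Cyc8 in Dpdr1. They were also lost on the values as deposited (-0.95 and -0.82) and in a fit of only the groups compared (-1.10 and -0.96). Against Dpdr1 LHS1 passed in 24 of 25 and was lost when the 3 arrays named above were left out (-1.39, adjusted p = 0.0710). JEM1 passed in 18 and was lost without Dpdr1 array 1 or 3 (-0.76 and -0.79) or array 2 or 3 of Pdr1-Cyc8 in Dpdr1 (-0.68 and -0.82), in a fit of only the groups compared (-0.90), with array weights (-0.71) and without those 3 arrays (-1.05). KAR2 passed in 12, with an adjusted p of 0.00847 to 0.360.

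Array by array, the mean level of the 10 response genes was 9.26, 9.0 and 8.99 in Pdr1-Cyc8 in Dpdr1 and 9.72, 9.55 and 9.67 in Dpdr1. It was 9.65, 9.38 and 9.28 in Pdr1-Cyc8, 9.52, 9.48 and 9.39 in Pdr1-Sin3 and 8.84, 9.84 and 9.93 with the empty vector. Empty vector array 1, the culture with little INO1, was the lowest of all, and the arrays of Pdr1-Cyc8 in Dpdr1 came next. Each of the 10 response genes had its lowest empty vector level on array 1, against 31.6% of all probe sets. Whether the response had a part in the INO1 level was not tested.

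**Figure D4:**
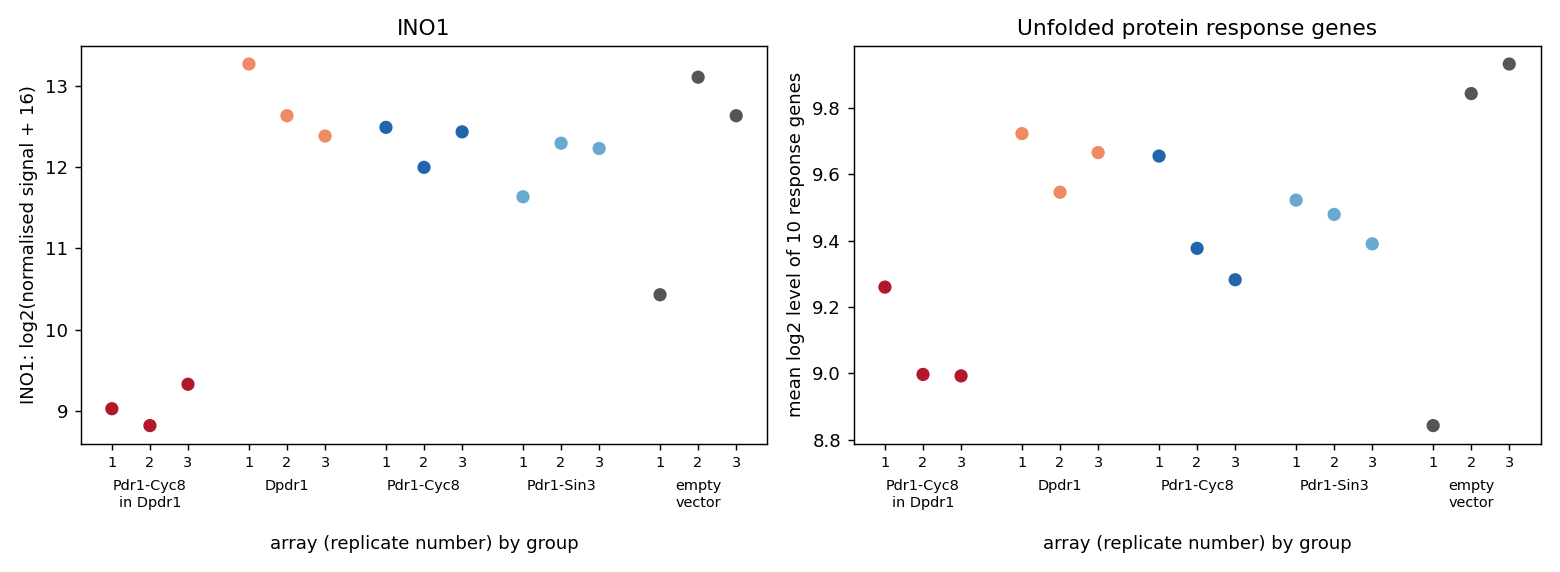
Level of INO1 (left, log2(normalised intensity + 16)) and mean level of 10 unfolded protein response genes (right, same scale) on the y axes, for the 3 replicate arrays of each group on the x axis; each point is 1 array. The 3 arrays of Pdr1-Cyc8 in Dpdr1 and array 1 of the empty vector are the lowest in both panels.

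The genes with the profile most like that of INO1 were found over the 15 arrays, by the root mean square difference of their levels after each was centred on its own mean. Among 3915 genes with a mean level of at least 7, YGP1, a gene for a secreted glycoprotein, was the closest, at 0.68 log2 units. YOR1, which encodes an ABC transporter and is a known target of Pdr1, followed at 0.72, then YNL134C at 0.78, YAR009C at 0.79 and BNA2, an NAD synthesis gene, at 0.79. YAR009C belongs to a Ty transposon, and its probe set can detect other copies, so that its level is uncertain. YOR1 had 7 probe sets, of which only the brightest stood for it here. YGP1 averaged 9.47 ± 0.31 in Pdr1-Cyc8 in Dpdr1, 13.09 ± 0.59 in Dpdr1, 11.88 ± 0.38 in Pdr1-Cyc8, 12.37 ± 0.11 in Pdr1-Sin3 and 12.94 ± 0.21 with the empty vector (SD, n = 3 each). YOR1 averaged 7.0 ± 0.11 in Pdr1-Cyc8 in Dpdr1, 10.75 ± 0.81 in Dpdr1, 9.36 ± 0.49 in Pdr1-Cyc8, 8.82 ± 0.23 in Pdr1-Sin3 and 10.06 ± 0.30 with the empty vector. These genes were picked for their likeness to INO1, so their levels are a description and the likeness carries no test.

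The other genes of the 10 were not among the closest. The levels were not scaled to a common spread, so a gene that varied little could not rank close to INO1, whatever the direction of its changes. PSD1 ranked 328 of 3915, OPI3 330, CHO2 524, INO2 567 and ITR1 983. OPI1 ranked 1762, PIS1 2865 and CHO1 3033, and INO4 was too dim to be ranked. Of the 10 response genes LHS1 ranked 40, ERO1, an oxidase gene of the endoplasmic reticulum, 48, KAR2 153, JEM1 194 and EUG1 217. The other 5 ranked from 488 to 1558, further from INO1 than PSD1 and OPI3. On empty vector array 1 the 5 closest genes were less low than INO1.

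**Figure D5:**
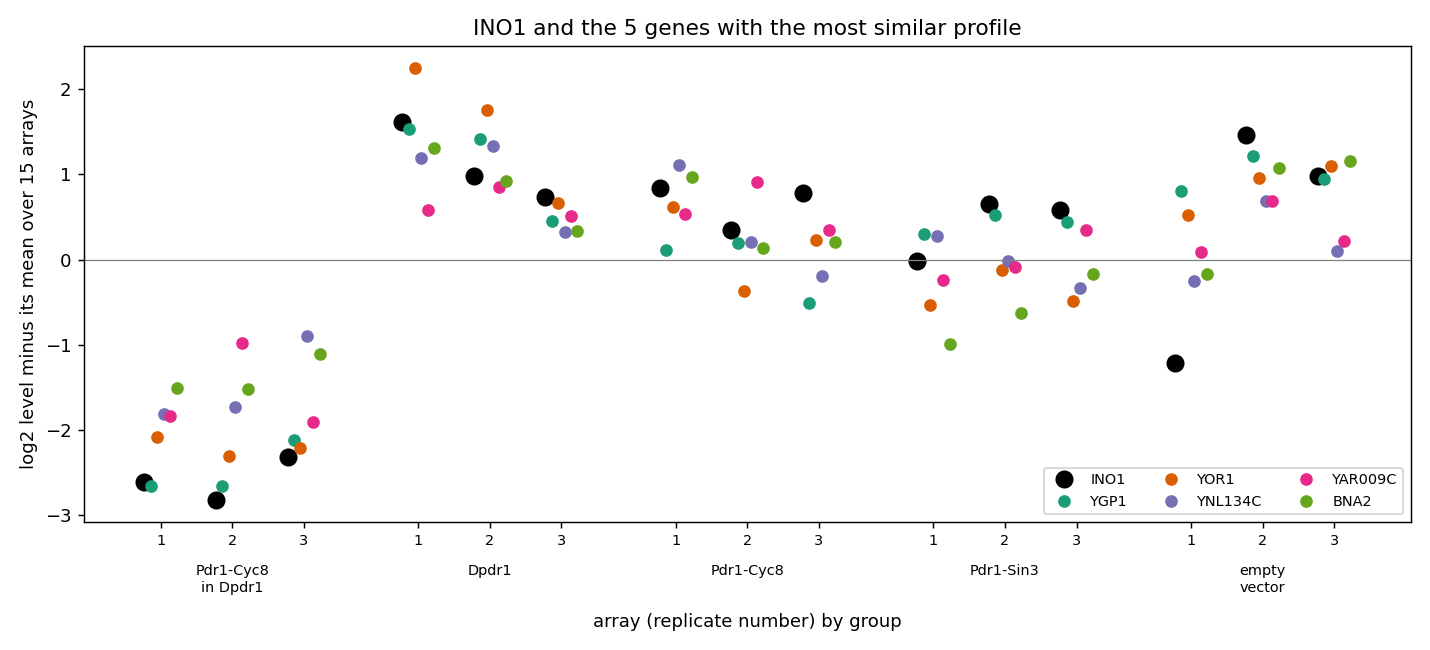
Log2 level minus its mean over the 15 arrays (y axis) for INO1 (large black points) and the 5 genes with the most similar profile (coloured points), for the 3 replicate arrays of each group (x axis). All 6 genes are lowest in Pdr1-Cyc8 in Dpdr1, and on empty vector array 1 INO1 is the lowest of the 6.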

How the data were processed

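Per the labels' protocols, biotinylated cRNA was made from 10 ug of total RNA of each culture and hybridised to 1 array. The deposited table holds linear intensity values, with a single value for each probe set on each array. The sources used here name no software for them. Their trimmed mean (2% at each end) of 500.5 to 500.7 on every array reflects a common scaling before deposit by the authors. Probe sets were named from the platform annotation, with symbols brought up to date. Controls (60) were left out; intensities were quantile normalised and converted to log2(intensity + 16).

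A single limma 3.58.1 fit (R 4.3.3) to the 15 arrays, with 10 residual degrees of freedom, gave the group differences, with Benjamini-Hochberg adjustment over 9275 probe sets and a threshold of 0.05. The procedure was tested on simulated data. The number of arrays limits the precision, and p-values measure the spread between labelled biological replicates. The genes, the 11 other lists and the rule for named genes (all 10 genes, at most 4 called per list and comparison, the manipulated genes, and the 5 nearest to INO1) were chosen with earlier results of these data known. Alternatives changed the scaling, pseudocount (1 or 64), low filter (dimmest 25%), variance model, arrays in the fit, array weights and replicate block. Averaging probe sets did not apply. Figures used matplotlib 3.10.9.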

Additional observations from a re-analysis of the deposited data

Results flagged for a closer look

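The effect of the Pdr1-Cyc8 fusion in Dpdr1 cells was set against its effect in cells that kept PDR1. For INO1 the effect was -3.70 in Dpdr1 cells and 0.25 in cells with PDR1, a difference of -3.95. INO1 was followed because its value in Dpdr1 cells was known, and that value makes up most of the difference, so it is a description with no test. With the 3 arrays left out that had the least ribosome assembly signal (Dpdr1 arrays 1 and 2, Pdr1-Cyc8 array 1), the difference was -3.51. A pair of the neighbouring lipid genes differed by the limma test of the difference itself. For ECT1 the effects were 0.88 and -0.47, a difference of 1.35 (SE 0.331, adjusted p = 0.0203). That call was lost without empty vector array 1 (1.21), Pdr1-Cyc8 array 1 (1.26) or array 1 of Pdr1-Cyc8 in Dpdr1 (1.23), and without the 3 arrays of least ribosome assembly signal it was 0.94 (adjusted p = 0.275, the highest of 25 alternatives, from 0.00638). For SAC1 the effects were 0.89 and -0.48, a difference of 1.37 (SE 0.418, adjusted p = 0.0470), which passed in 7 of 25 alternatives, with an adjusted p of 0.0086 to 0.405 and values of 0.89 to 1.73. The Dpdr1 and Pdr1-Cyc8 in Dpdr1 arrays belong to different spike-in sets, and the causes were not tested.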

How the results depend on the processing

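Each difference of the 10 genes was recomputed under up to 26 other settings, 2280 in all. Of these 2148 kept direction and side of the threshold, 10 lost a call, 7 gained one and 0 called differences changed sign. Of 2129 recomputed differences without a call, 115 took the other sign. The differences called at first were those of INO1 on the arrays for which it was chosen, and PIS1 against the empty vector. The kept calls of INO1 are therefore a description with no test, and the PIS1 call held in 16 of 25 settings. In Pdr1-Cyc8 in Dpdr1 against the empty vector the number called was 1 rather than 2 with the values as deposited, with median centring and with a pseudocount of 1, and 1 to 2 when single arrays were left out; the gene that lost its call was PIS1. Against Dpdr1 it was 2 rather than 1 with median centring (CHO2), a pseudocount of 64 (PIS1) and without the dimmest 25% of probe sets (PIS1), and 1 to 2 when single arrays were left out. For the difference between the fusion's effects it was 2 with a pseudocount of 64 and with array weights (CHO2 in both), 1 to 2 when single arrays were left out (OPI3 without Dpdr1 array 3, -1.25) and 0 with the 3 arrays left out that had the least ribosome assembly signal, a setting chosen after seeing the data. The causes were not tested. The values as deposited moved the median of all probe sets to 0.14 in Pdr1-Cyc8 in Dpdr1 against the empty vector, against 0.01 after quantile normalisation.

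The values gave no sign that the replicate numbers paired the cultures, though groups of 3 arrays cannot exclude it. Deviations from the group means of arrays with the same number correlated from -0.35 to 0.33 over 30 pairs. Those of arrays with other numbers correlated from -0.52 to 0.44 over 60 pairs, and 2 of 15 arrays correlated best with their own number. With the replicate block the number of the 10 genes called did not change, and INO1 in Pdr1-Cyc8 in Dpdr1 against the empty vector was at -2.99. Among the other genes named, SAC1 (adjusted p = 0.0563) and KAR2 (adjusted p = 0.0616) lost their calls against Dpdr1 under the block. Levels near the median intensity, such as those of INO4 and JEM1, are the least certain.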
